A study of Mus musculus with 30 samples.

Results

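The Meis, Pbx and Pknox genes examined here were Meis1, Meis2, Meis3, Pbx2, Pbx3, Pknox1 and Pknox2, 7 genes of the 18194 with a symbol on a pair of mouse Affymetrix arrays (MOE430A and MOE430B). Every probe set that the platform tables assign to exactly one of these symbols was taken, which gave 18 probe sets of 45137 that are not controls, 10 on MOE430A and 8 on MOE430B, and each is described on its own. The genes were selected on the Meis1 and Meis2 differences between EGF and PDGF, which were already known, so all values of that comparison are given as a description and no p-value of these genes is printed for it, nor for EGF against PDGF+NT-3, which uses the same EGF samples. PDGF+NT-3 against PDGF uses the same PDGF samples, and for Meis1 and Meis2 its values are likewise a description, while the other 5 genes are given with limma's test. The arrays measured RNA from neurospheres, floating clusters of dividing neural precursors, cultured from embryonic day 14 mouse ventral forebrain for 7 days, in DMEM:F12 medium supplemented with N2 and B27. EGF neurospheres (6 RNA samples) were started from medial and lateral ganglionic eminence, the ventral swellings that form the pallidum and striatum. PDGF+NT-3 neurospheres (3 samples) and PDGF neurospheres (6 samples) came from the anterior entopeduncular area, and both received PDGF-AA, the PDGF samples at 100 ng/ml. PDGF+NT-3 cultures also received neurotrophin-3. The labels give both of their factors per microlitre, a unit that could not be checked, and while EGF is named in the EGF samples' titles, descriptions and purification protocol, PDGF-AA is named in their growth protocol. Growth factor and brain region differ together between EGF and PDGF neurospheres and cannot be told apart. The sources used here do not give the strain, the number of embryos or whether replicates were separate cultures, so the spread between samples may be technical.

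All 7 genes encode homeodomain proteins of the TALE class, named for an extra loop of amino acids in the homeodomain. Meis and Pknox proteins bind DNA themselves and bind Pbx proteins. This pairing helps to hold Pbx in the nucleus, and the pairs bind DNA together with Hox and other homeodomain proteins. In the forebrain, Meis2 is known for its expression in the lateral ganglionic eminence and striatum and for its work beside Pax6 in making olfactory bulb neurons. Meis genes are also known as genes induced by retinoic acid.

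The 2 genes that led to the selection lie on different chromosomes of build GRCm38.p6, Meis1 on chromosome 11 (18880428 to 19019651) and Meis2 on chromosome 2 (115861264 to 116067537). A promoter window of each is shown because at least 1 probe set of each was high in EGF neurospheres. RefSeq promoter windows of 300 bases were at hand for 4 of the 7 genes (Meis1, Meis2, Meis3 and Pbx2). Each line below gives the 250 bases before the annotated start, 5′ to 3′ on the minus strand, and the capitals mark the 50 bases next to the start. The Meis1 stretch is chr11:19018970-19019219 and the Meis2 stretch is chr2:116064620-116064869. Both stretches lie inside the gene spans given above, so the start used lies downstream of the 5′ end of each span. Sequence at those 5′ ends was not searched.
Meis1: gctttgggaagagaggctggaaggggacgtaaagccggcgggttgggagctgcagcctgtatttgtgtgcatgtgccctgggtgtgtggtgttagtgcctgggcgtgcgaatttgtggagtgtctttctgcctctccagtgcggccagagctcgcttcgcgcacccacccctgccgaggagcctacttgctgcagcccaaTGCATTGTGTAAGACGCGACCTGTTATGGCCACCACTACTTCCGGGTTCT
Meis2: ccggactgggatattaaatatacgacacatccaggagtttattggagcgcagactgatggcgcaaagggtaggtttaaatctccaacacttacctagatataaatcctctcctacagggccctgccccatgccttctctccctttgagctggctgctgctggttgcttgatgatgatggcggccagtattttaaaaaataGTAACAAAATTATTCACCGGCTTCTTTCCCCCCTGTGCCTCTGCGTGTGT
The windows were searched on both strands for TGACAG (the Meis and Pknox core motif), TGATTG (the Pbx core), TGATTGAC (Pbx beside Meis or Pknox, which overlaps the Pbx core) and AGGTCA (a retinoic acid receptor half-site). None of these letters occurred in any of the 4 windows (0 matches each). Among all 32851 promoter windows of the same length, 19.2% held TGACAG, 14% TGATTG, 0.77% TGATTGAC and 16.3% AGGTCA. The windows of Meis1 and Meis2 were 58.3% and 51% G and C, against a median of 52.7% over all windows. The sources used here do not give where in its transcript each probe set lies.

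Values are linear array signals as deposited, scaled by the authors so that every array had nearly the same trimmed mean (1500.2 to 1500.77). The median signal of an array lay between 456 and 672 on MOE430A and between 818 and 933 on MOE430B. The precision of each value is limited by the number of arrays. PDGF+NT-3 samples resembled one another less than the other conditions' samples did: the median correlation of log2 signals between 2 samples was 0.855 within EGF, 0.808 within PDGF+NT-3 and 0.858 within PDGF. Fluidics runs were inferred from the station, protocol and hybridisation time of each array. By that rule all PDGF+NT-3 arrays were run apart from the other arrays, replicates 1 and 2 in one run and replicate 3 in another. Run and condition therefore cannot be told apart in their comparisons. The log2 ratio of 3′ to 5′ Gapdh control signal on MOE430B, a measure of RNA integrity, was 4.10 to 4.20 in PDGF+NT-3 samples, above the 3.47 to 3.81 of EGF and the 3.28 to 3.97 of PDGF samples. On MOE430A the same ratio overlapped, at 3.62 to 4.01 in EGF, 3.52 to 4.38 in PDGF+NT-3 and 3.65 to 4.12 in PDGF samples. That of actin on MOE430B was 2.43 to 3.14 in EGF, 3.18 to 3.84 in PDGF+NT-3 and 2.89 to 3.40 in PDGF samples, so that PDGF+NT-3 and PDGF overlapped. The labels also give RNA concentrations of 192, 287 and 171 ng per microlitre for PDGF+NT-3 replicates 1 to 3. For every EGF and PDGF sample they give 100, so concentration and condition cannot be told apart in comparisons with PDGF+NT-3. The part of RNA integrity or concentration in the differences below was not tested. EGF and PDGF arrays shared 3 fluidics runs with 2 samples of each condition in each.

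Of the 18 probe sets, 14 reached the array's median signal in at least 3 of 15 arrays and entered the fit: 3 of Meis1, 4 of Meis2, 1 of Meis3, 2 of Pbx2, 2 of Pbx3, 1 of Pknox1 and 1 of Pknox2. The other 4 (another probe set of Pbx2, a pair of Pknox1 and one of Pknox2) were low in nearly all samples. With NT-3 added to PDGF, 2 of the 7 probe sets of Meis3, Pbx2, Pbx3, Pknox1 and Pknox2 rose (one each of Pbx3 and Pknox1), 0 fell and 5 did not pass limma's test at an adjusted p of 0.05. Of the 7 probe sets of Meis1 and Meis2, 1 of Meis1 was higher and 1 of Meis1 lower at that threshold, a count from which nothing is read. Over all 29796 probe sets tested, 6.33% rose and 10.8% fell in that comparison. Samples of PDGF+NT-3 and PDGF did not overlap for 2 of the 7 probe sets of those 5 genes and 1 of the 7 of Meis1 and Meis2, against 17.6% of all probe sets. Of these, Pknox1 1437470_at reached its array's median in 5 EGF, 3 PDGF+NT-3 and 0 PDGF samples, so it entered the fit without a PDGF sample, and Meis1 1450992_a_at did so in 6 EGF, 1 PDGF+NT-3 and 0 PDGF samples. The median log2 difference of the 14 was -0.08, beside -0.11 for all probe sets. For all probe sets of one chip it was -0.11 on MOE430A and -0.10 on MOE430B, and centring each array on its median was tried as an alternative. Between EGF and PDGF, 4 of the 14 were higher and 1 was lower at the same threshold, beside 4.39% and 4.04% of all probe sets, and 6 did not overlap, beside 6.31%. These counts include the values that chose the genes. Between EGF and PDGF+NT-3, 4 were higher and 1 lower, beside 11.0% and 6.91% of all probe sets, and 3 did not overlap, beside 18.7%. Nothing is read from the counts of either comparison with EGF. The 3 comparisons share samples, so their values stand side by side and are not independent.

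**Figure D1:**
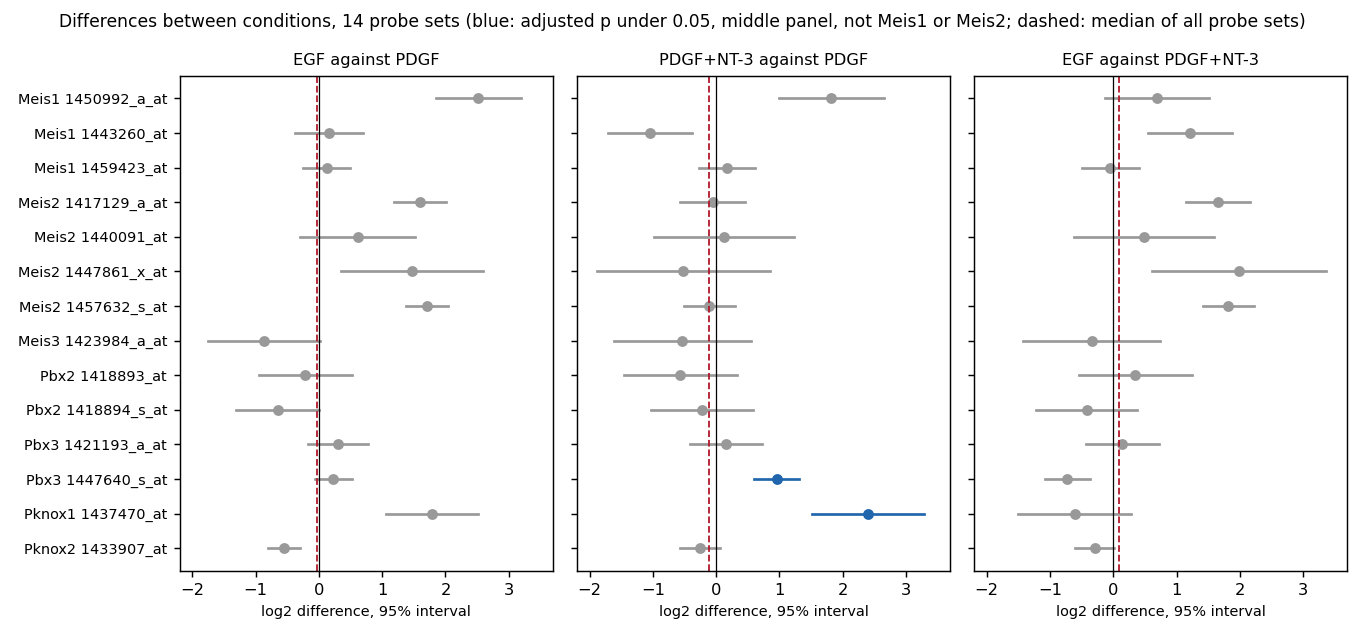
Log2 difference between conditions with its 95% interval for the 14 probe sets in the fit, one panel per comparison (first-named condition minus the second). Blue, used only in the middle panel and only for genes other than Meis1 and Meis2, marks an adjusted p under 0.05, and the dashed line is the median of all 29796 probe sets. Meis2 probe sets lie right of 0 in both panels with EGF and their intervals include 0 in the middle panel, where Meis1 1450992_a_at, Pbx3 1447640_s_at and Pknox1 1437470_at lie furthest right.

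Meis2 was high in EGF neurospheres and similar in both kinds of neurosphere grown with PDGF. On probe set 1457632_s_at the lowest, median and highest signals were 35653, 42212 and 48162 in EGF samples. The 3 PDGF+NT-3 samples had 16031, 8046 and 12251, and PDGF samples had 10146, 12062 and 16238. Every EGF sample was above every sample of the other conditions, and 1 PDGF+NT-3 sample lay under the PDGF range and the others within it. The log2 difference was 1.71 ± 0.16 (SE) for EGF against PDGF, a 3.26-fold higher signal, and 1.81 ± 0.19 for EGF against PDGF+NT-3. With NT-3 added it was -0.11 ± 0.19, with a 95% interval of -0.51 to 0.29. In these bulk samples fewer cells of a type and less RNA per cell cannot be told apart.

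The MOE430A probe set of Meis2, 1417129_a_at, gave the same order. Its signal was 3119, 4114 and 4581 in EGF samples (lowest, median and highest). In the 3 PDGF+NT-3 samples it was 1689, 991 and 1103, and in PDGF samples it was 851, 1451 and 1679. EGF samples again stood apart from all others, while the PDGF+NT-3 and PDGF ranges overlapped. The log2 difference was 1.60 ± 0.20 for EGF against PDGF, 1.65 ± 0.24 for EGF against PDGF+NT-3 and -0.06 ± 0.24 for PDGF+NT-3 against PDGF. Signals of these probe sets had a Pearson correlation of 0.96 across the 15 samples, which share the same RNA, and of 0.66 once each condition's mean was removed.

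The other Meis2 probe sets were less even. Probe set 1447861_x_at, a type in which some probes may also bind other transcripts, had 1536, 2142 and 3057 in EGF samples, 2512, 179 and 144 in the 3 PDGF+NT-3 samples and 78.6, 863 and 1512 in PDGF samples. PDGF+NT-3 replicate 1 lay within the EGF range and the others lay far under it. EGF and PDGF samples did not overlap (1.47 ± 0.53, log2), while EGF and PDGF+NT-3 samples did (1.99 ± 0.65). Probe set 1440091_at had 424, 1107 and 1570 in EGF samples, 121, 966 and 1524 in the 3 PDGF+NT-3 samples and 365, 515 and 957 in PDGF samples. Here all conditions overlapped and the EGF difference against PDGF was 0.61 ± 0.43 on the log2 scale. The correlation of this probe set was 0.23 with 1417129_a_at, -0.15 with 1447861_x_at and 0.27 with 1457632_s_at. Once each condition's mean was removed, it was negative with all of these (-0.35, -0.54 and -0.29 in the same order). For PDGF+NT-3 against PDGF the difference was -0.52 ± 0.65 for 1447861_x_at (95% interval -1.89 to 0.86) and 0.13 ± 0.53 for 1440091_at (-0.98 to 1.23). PDGF+NT-3 replicate 1 weighed heavily on both, since without it the differences were -1.60 and 0.96.

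**Figure D2:**
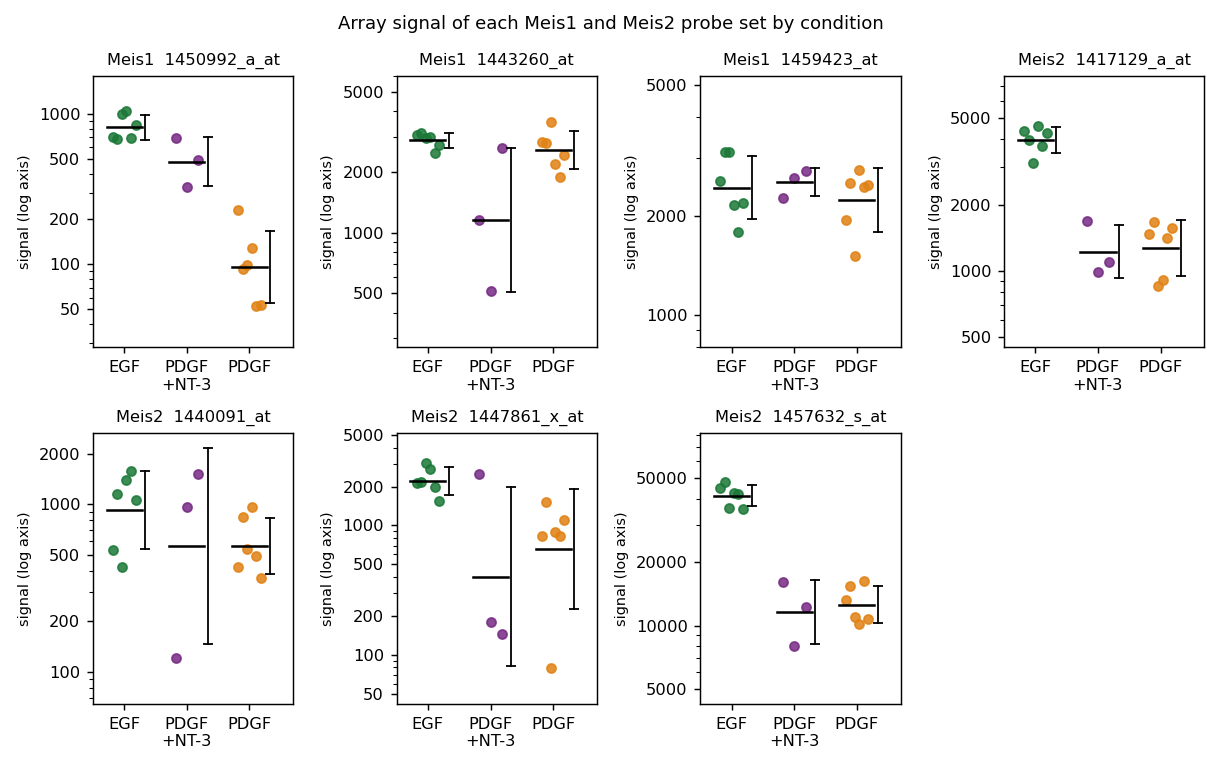
Signal of each Meis1 and Meis2 probe set in every sample (one point per sample, log axis) in EGF (6), PDGF+NT-3 (3) and PDGF (6) neurospheres. The thick line is the mean of the log2 signals and the bar is 1 SD of them on each side, both turned back to the signal scale. EGF samples of Meis2 1457632_s_at lie between 35653 and 48162, above all others, and for Meis1 1450992_a_at PDGF samples alone stand apart, below overlapping EGF and PDGF+NT-3 samples.

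Meis1, a partner of Hox proteins in blood stem cells and leukaemia, gave a different picture on each of its 3 probe sets. On 1450992_a_at the signal was 686, 775 and 1054 in EGF samples (lowest, median and highest). It was 692, 329 and 495 in the 3 PDGF+NT-3 samples, and 53.1, 95.7 and 228 in PDGF samples. Each PDGF sample was under every sample of the other conditions, and 5 of the 6 were under the 25th percentile of their array. The signal was higher in PDGF+NT-3 than in PDGF neurospheres, by 1.82 ± 0.39 on the log2 scale (3.54-fold). The difference of EGF against PDGF was 2.52 ± 0.32 on the log2 scale and that of EGF against PDGF+NT-3 was 0.69 ± 0.39, where the ranges touched: PDGF+NT-3 replicate 1 lay above the lowest EGF samples. A pseudocount of 52.0 on MOE430A is part of these values and pulls the folds of a signal as low as that of PDGF samples towards 1. Since detection calls were not used, whether the PDGF signal is above background is not known.

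The MOE430B probe sets of Meis1 did not repeat this. On 1443260_at the signal was 2484, 2965 and 3127 in EGF samples, 1151, 511 and 2639 in the 3 PDGF+NT-3 samples, and 1898, 2608 and 3533 in PDGF samples. Replicates 1 and 2 of PDGF+NT-3, which shared a fluidics run, were under all other samples, and replicate 3, from another run, was within the PDGF range. The difference of PDGF+NT-3 against PDGF was -1.05 ± 0.31 on the log2 scale (95% interval -1.71 to -0.38). It was -0.52 without PDGF+NT-3 replicate 2 and -1.59 without replicate 3, and it was no longer past the threshold without PDGF+NT-3 replicate 1 or 2, without PDGF replicate 1 or 3, or with only these conditions in the fit. The difference of EGF against PDGF was 0.16 ± 0.26 and that of EGF against PDGF+NT-3 was 1.21 ± 0.31, which without PDGF+NT-3 replicate 2 was 0.68 and no longer past the threshold. On 1459423_at the signal was 1786, 2371 and 3135 in EGF samples, 2268, 2608 and 2742 in the 3 PDGF+NT-3 samples, and 1511, 2461 and 2758 in PDGF samples, so that all conditions overlapped. Its difference was 0.12 ± 0.17 for EGF against PDGF and 0.17 ± 0.21 for PDGF+NT-3 against PDGF (95% interval -0.28 to 0.62). Correlations between the Meis1 probe sets across the 15 samples were 0.05, 0.16 and -0.15. Thus the direction of Meis1 in PDGF+NT-3 against PDGF depends on the probe set, and which of them follows the gene's mRNA was not tested.

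Meis3, known from frog and fish embryos for its role in hindbrain patterning, has 1 probe set, 1423984_a_at (gene on chromosome 7, 16174012 to 16186510). Its signal was 51.0, 562 and 661 in EGF samples (lowest, median and highest), 876, 367 and 469 in the 3 PDGF+NT-3 samples, and 660, 770 and 990 in PDGF samples. All but one EGF sample lay under the PDGF range, that one (661) lay just above its lowest value, and EGF replicate 3 stood far below the rest. The difference was -0.87 ± 0.42 for EGF against PDGF, and without EGF replicate 3 it was the smallest of the values with 1 sample left out (-0.44). For PDGF+NT-3 against PDGF it was -0.54 ± 0.51 (95% interval -1.62 to 0.55, adjusted p = 0.513, limma), which does not separate the conditions.

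Pknox1, a Meis-related partner of Pbx that mouse embryos need before gastrulation, had the largest difference with NT-3 among the 14 probe sets (gene on chromosome 17, 31564722 to 31607693). On 1437470_at EGF samples ranged from 630 through a median of 2101 to 3312. The signal was 3013, 3094 and 2042 in the 3 PDGF+NT-3 samples, and 296, 420 and 546 in PDGF samples (lowest, median and highest). All 6 PDGF samples were under the median of their arrays and under every other sample, so this probe set entered the fit only through the other conditions. EGF samples were widely spread, with 3 of them (replicates 1, 2 and 5) near the PDGF+NT-3 level and 3 between 630 and 1341. The signal rose by 2.40 ± 0.42 on the log2 scale in PDGF+NT-3 against PDGF (5.29-fold, 95% interval 1.51 to 3.29, adjusted p = 0.00118, limma). EGF samples were 1.79 ± 0.34 above PDGF and 0.61 ± 0.42 under PDGF+NT-3 (-0.61, log2). The coefficient of variation of the signal was 58.5% in EGF, against 21.5% in PDGF+NT-3 and 21.8% in PDGF.

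The other Pknox1 probe sets, both on MOE430A, were dim and did not enter the fit. On 1450172_at the signal was 110, 255 and 606 in EGF samples, 590, 426 and 97.2 in the 3 PDGF+NT-3 samples, and 24.9, 64.3 and 331 in PDGF samples. Most EGF and PDGF+NT-3 samples were thus above most PDGF samples, with overlap, and the log2 differences without the filter were 1.18 ± 0.47 for EGF against PDGF and 1.41 ± 0.57 for PDGF+NT-3 against PDGF. Its correlation with 1437470_at was 0.70 across samples and 0.40 once each condition's mean was removed. On 1421233_at the signal was 20.4, 122 and 465 in EGF samples, 166, 116 and 301 in the 3 PDGF+NT-3 samples and 63.7, 204 and 432 in PDGF samples. That probe set overlapped in all conditions and had no sample at its array's median. Its log2 differences without the filter were -0.45 ± 0.44 for EGF against PDGF and -0.07 ± 0.54 for PDGF+NT-3 against PDGF. It had a correlation of 0.03 with 1437470_at, and of 0.36 once each condition's mean was removed.

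Pknox2, the close relative of Pknox1 (gene on chromosome 9, 36890979 to 37147342), went the other way in EGF neurospheres. On 1433907_at the signal was 2664, 3440 and 3711 in EGF samples, 4777, 3629 and 3981 in the 3 PDGF+NT-3 samples, and 4050, 4974 and 5898 in PDGF samples. Every EGF sample was under every PDGF sample, and the PDGF+NT-3 samples lay between and overlapped both. The difference was -0.55 ± 0.12 for EGF against PDGF (1.47-fold lower), -0.30 ± 0.15 for EGF against PDGF+NT-3, and -0.26 ± 0.15 for PDGF+NT-3 against PDGF (95% interval -0.57 to 0.05, adjusted p = 0.249, limma). The dim probe set 1428017_at, which did not enter the fit, had the same order of median signals (281 in EGF, 416 in PDGF+NT-3 and 522 in PDGF) with overlap between all conditions. The correlation of these probe sets was 0.74, and 0.42 once each condition's mean was removed.

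Pbx3, a Pbx protein that newborn mice need for normal control of breathing (gene on chromosome 2, 34171457 to 34372045), was higher with NT-3 on one of its probe sets. On 1447640_s_at EGF samples had 14614, 18435 and 21270 (lowest, median and highest). The signal was 37386, 24391 and 28746 in the 3 PDGF+NT-3 samples and 11983, 16428 and 17362 in PDGF samples. All PDGF+NT-3 samples were above all others, while EGF and PDGF samples overlapped. The signal rose by 0.96 ± 0.17 on the log2 scale in PDGF+NT-3 against PDGF (1.94-fold, 95% interval 0.60 to 1.31, adjusted p = 0.00123, limma). EGF differed from PDGF by 0.23 ± 0.14 and from PDGF+NT-3 by -0.73 ± 0.17. On the MOE430A probe set 1421193_a_at the signal was 1026, 1272 and 1671 in EGF samples, 886, 1394 and 1220 in the 3 PDGF+NT-3 samples and 672, 1074 and 1464 in PDGF samples. Here all conditions overlapped, and the difference with NT-3 was 0.16 ± 0.27 (95% interval -0.42 to 0.73, adjusted p = 0.739, limma). That interval leaves out the 0.96 of the other probe set but overlaps its interval. The difference between the Pbx3 probe sets was not tested. The correlation of the Pbx3 probe sets was 0.05.

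Pbx2, whose loss alone leaves mice without an evident defect (gene on chromosome 17, 34592259 to 34597400), did not separate the conditions. On 1418893_at the signal was 462, 628 and 804 in EGF samples, 818, 755 and 149 in the 3 PDGF+NT-3 samples and 436, 758 and 935 in PDGF samples. PDGF+NT-3 replicate 3 was the lowest of all samples and the rest overlapped, and without it the difference with NT-3 given below was 0.12. On 1418894_s_at the signal was 222, 383 and 759 in EGF samples, 546, 736 and 523 in the 3 PDGF+NT-3 samples and 535, 695 and 988 in PDGF samples. Most EGF samples (4 of 6) were under the PDGF range, with a difference of -0.65 ± 0.31 for EGF against PDGF. The differences with NT-3 were -0.56 ± 0.43 (95% interval -1.46 to 0.34, adjusted p = 0.394) and -0.22 ± 0.38 (95% interval -1.03 to 0.58, adjusted p = 0.731) in limma's fit. The remaining probe set, 1449261_at, had median signals of 283 in EGF, 318 in PDGF+NT-3 and 161 in PDGF samples and reached its array's median in 0 samples.

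**Figure D3:**
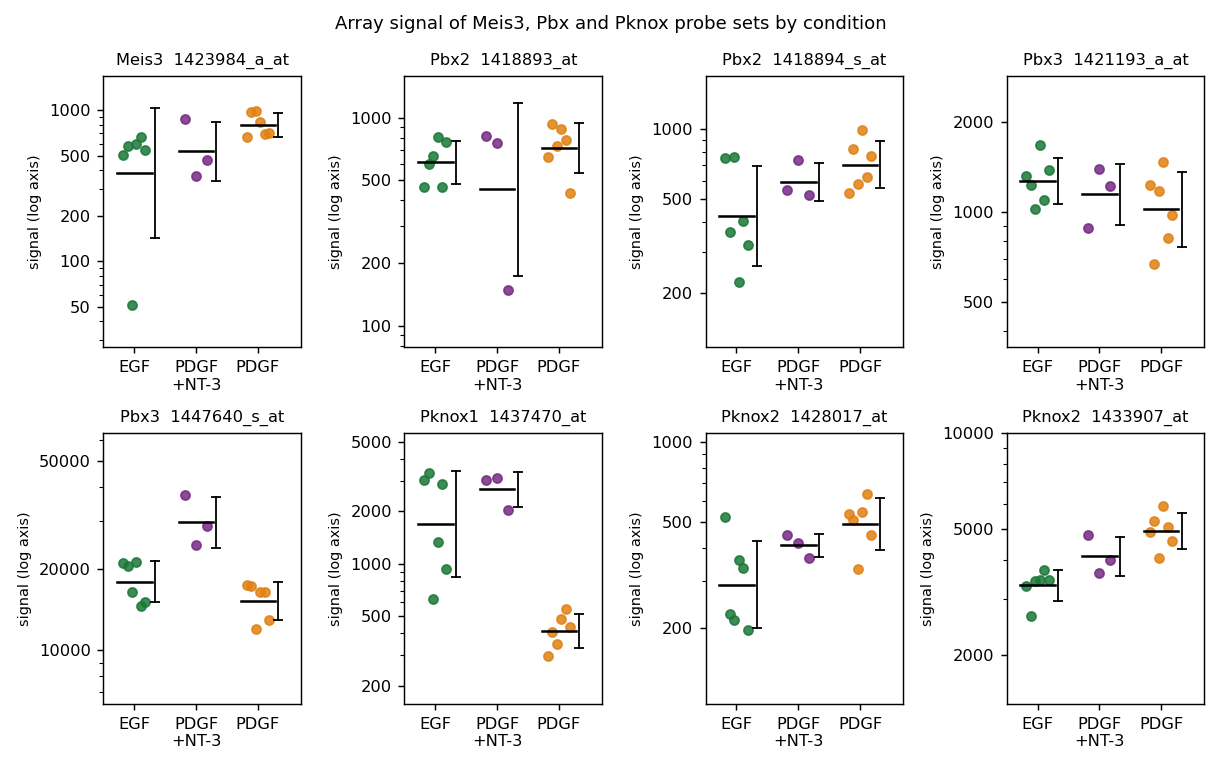
Signal of the Meis3, Pbx2, Pbx3, Pknox1 and Pknox2 probe sets (the 7 that entered the fit and Pknox2 1428017_at) in every sample of EGF (6), PDGF+NT-3 (3) and PDGF (6) neurospheres, on a log axis. The thick line and bar are the mean and 1 SD of the log2 signals, turned back to the signal scale. Pbx3 1447640_s_at is highest in PDGF+NT-3 (24391 to 37386), and Pknox1 1437470_at is lowest in PDGF (296 to 546).

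EGF and PDGF samples shared 3 fluidics runs. The 6 probe sets whose EGF and PDGF samples did not overlap had to keep their direction within each run. Their values within runs therefore describe only the size of the differences. The mean log2 difference of EGF against PDGF ranged over the runs from 1.89 to 2.95 for Meis1 1450992_a_at. It ranged from 1.37 to 2.04 for Meis2 1417129_a_at and from 1.54 to 1.89 for Meis2 1457632_s_at. Meis2 1447861_x_at spread more widely, from 0.80 to 2.76, and so did Pknox1 1437470_at, from 0.99 to 2.83. Pknox2 1433907_at was lower in EGF in all runs, from -0.76 to -0.41. The probe sets with small differences included 2 that changed sign between runs, Meis1 1459423_at (-0.30 to 0.34) and Pbx2 1418893_at (-0.52 to 0.02).

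**Figure D4:**
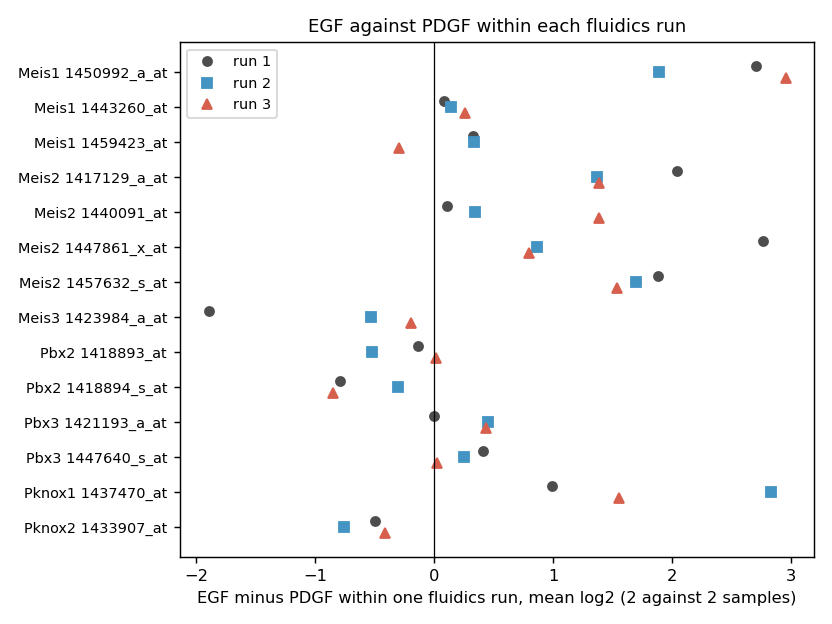
Mean log2 difference of EGF minus PDGF within each of 3 fluidics runs (2 samples against 2), for the 14 probe sets. Meis1 1450992_a_at, the Meis2 probe sets and Pknox1 1437470_at lie right of 0 in every run, and Meis3, Pbx2 1418894_s_at and Pknox2 lie left of it.

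The genes whose log2 signals followed those of Meis1 and Meis2 most closely over the 15 samples were taken for the brightest probe set of each gene. For Meis2 1457632_s_at they were Nudt1 (r = 0.96), Dgkz (0.96), Pon2 (0.95), Tmem201 (0.95) and Tmem47 (0.95). All 5 had their highest mean in EGF samples, for example 7350 in EGF, 2424 in PDGF+NT-3 and 2654 in PDGF samples for Nudt1, which clears oxidised nucleotides. For Meis1 1459423_at, which hardly varied between conditions, they were Tex9 (r = 0.83), Nae1 (0.82), Tra2a (0.78), S100a16 (0.77) and Paqr5 (0.77). A pair of further probe sets was chosen for the same search after their values were seen. Meis1 1450992_a_at was followed most closely by Rfx4 (r = 0.94; mean signal 26773 in EGF, 13116 in PDGF+NT-3 and 5241 in PDGF samples), a factor of the developing brain. Pknox1 1437470_at was followed most closely by Sparc (r = 0.91; 1335 in EGF, 2423 in PDGF+NT-3 and 439 in PDGF samples), a secreted matrix protein. The points share their RNA samples, and these correlations hold the differences between conditions within them.

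Genes that work with these proteins were set beside them by lists written with earlier results of these data known. Over all probe sets tested, 6.33% rose and 10.8% fell with NT-3. For EGF against PDGF, 4.39% were higher and 4.04% lower. The counts of the lists are given as a description beside these shares, and nothing is read from them. Genes were named because they passed the threshold, so their adjusted p-values were under 0.05 by choice and are no further support. Some were dim in one condition, such as Meox1 (mean 73.9 in PDGF+NT-3 and 439 in PDGF samples) and Neurod1 (159 and 899). Whether such low signals are above background is not known. Of 12 other TALE genes and partners, 10 probe sets of 9 genes were tested. With NT-3, 0 rose and 2 fell (median -0.17): Meox1, a partner from another homeobox class, fell by 1.93 ± 0.38 (adjusted p = 0.00278, limma) and Irx3 by 1.71 ± 0.50 (adjusted p = 0.0275). EGF samples were higher than PDGF samples on 3 and lower on 2 (median -0.02), among them Pbxip1, which binds Pbx proteins and hinders their binding to DNA. Pbxip1 signal averaged 11560 ± 1816 in EGF, 945 ± 241 in PDGF+NT-3 and 930 ± 90.2 in PDGF samples (SD), a log2 difference of 3.55 ± 0.15 for EGF against PDGF.

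Hox proteins bind DNA with Pbx and Meis, and 15 probe sets of 11 of the 29 listed Hox genes were tested. With NT-3, 0 rose and 4 fell (median -0.87), namely those of Hoxa5 (-1.74 ± 0.48, adjusted p = 0.0196), Hoxa3 (-1.46 ± 0.31, adjusted p = 0.00404), Hoxc6 (-1.22 ± 0.41, adjusted p = 0.0498) and Hoxb7 (-1.14 ± 0.38, adjusted p = 0.0455) in limma's fit. For EGF against PDGF, 0 of 15 passed (median -0.08). In the retinoic acid list, 14 probe sets of 9 genes were tested. With NT-3, 2 rose, Cyp26a1, an enzyme that breaks down retinoic acid (1.80 ± 0.48, adjusted p = 0.0175), and a probe set of Nr2f2, a nuclear receptor (1.87 ± 0.61, adjusted p = 0.0443), while Rxra, a partner of the retinoic acid receptors, fell (-2.04 ± 0.51, adjusted p = 0.011). For EGF against PDGF, 1 was higher (Rdh10, a step of retinoic acid synthesis, 0.59 ± 0.15). The 1 that was lower was another probe set of Nr2f2 (-0.95 ± 0.22). Its mean signal was 1833 ± 629 in PDGF+NT-3 and 1669 ± 429 in PDGF samples (SD), and it did not pass with NT-3.

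Among factors that act beside Meis2 or Pbx in striatum and olfactory bulb, 24 probe sets of 13 genes were tested. Between EGF and PDGF, 6 were higher, such as Foxp1 (1.35 ± 0.29) and Six3 (0.81 ± 0.20), and 2 were lower, led by Zic1 (-4.83 ± 0.45). With NT-3, 0 rose and 4 fell: probe sets of Zic1 (-2.44 ± 0.44, adjusted p = 0.00141), Isl1 (-2.31 ± 0.69, adjusted p = 0.0284), Foxp1 (-1.71 ± 0.35, adjusted p = 0.00356) and Foxp2 (-1.04 ± 0.35, adjusted p = 0.0487, limma). The Zic1 probe set that fell is not the one that gave -4.83 above. On that brighter one, mean signal was 8110 ± 6700 in PDGF+NT-3 and 10348.5 ± 5716 in PDGF samples (SD). It was not among the 4 that fell. Of genes reported as targets of Meis or Pbx proteins, 25 probe sets of 14 genes were tested. With NT-3, 3 rose, among them Hif1a (2.12 ± 0.65, adjusted p = 0.033), and 4 fell, among them Neurod1 (-2.21 ± 0.37, adjusted p = 0.000836), Dcx, which is also on the neuron marker list below (-1.95 ± 0.41, adjusted p = 0.00428), and Th (-1.85 ± 0.42, adjusted p = 0.00673, limma). For EGF against PDGF, 5 were higher, such as Cdkn1a (1.03 ± 0.22) and Ccnd1 (0.98 ± 0.23), genes of cell cycle control, and 1 was lower.

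Markers of several cell types moved with the conditions. The summed signal of all 24 astrocyte and radial glia probe sets on the arrays was 190729 to 277469 in EGF samples, 90530 to 126535 in PDGF+NT-3 samples and 73141 to 95737 in PDGF samples. One of them, Slc1a3 1443749_x_at, had 84355 to 167572 in EGF, 11690 to 15571 in PDGF+NT-3 and 9874 to 25597 in PDGF samples. Without it the sum was 85654 to 143041 in EGF, 78841 to 110964 in PDGF+NT-3 and 57184 to 80211 in PDGF samples, so that EGF and PDGF+NT-3 overlapped. That of 11 oligodendrocyte progenitor probe sets was 54699 to 73241 in EGF, 162674 to 190921 in PDGF+NT-3 and 105721 to 137047 in PDGF samples. Myelinating oligodendrocyte probe sets (15) summed to 98009 to 155303 in EGF, 18630 to 26502 in PDGF+NT-3 and 75609 to 150152 in PDGF samples. Neuron probe sets (16) summed to 20067 to 40439 in EGF, 17045 to 41342 in PDGF+NT-3 and 40206 to 78356 in PDGF samples. Neural stem cell probe sets (12) summed to 42132 to 50395 in EGF, 19257 to 25311 in PDGF+NT-3 and 25598 to 32291 in PDGF samples. Mural cell and fibroblast probe sets (13) summed to 7119 to 12781 in EGF, 2622 to 4339 in PDGF+NT-3 and 2416 to 5421 in PDGF samples. The full sums of the astrocyte and radial glia, neural stem cell and mural lists were thus highest in EGF samples, without overlap. Each of these separations leaned on a bright probe set. Without Egfr 1435888_at the stem cell sum was 27258 to 32943 in EGF, 17149 to 23069 in PDGF+NT-3 and 23446 to 29996 in PDGF samples. Without Acta2 1416454_s_at the mural sum was 1812 to 3297 in EGF, 2027 to 2342 in PDGF+NT-3 and 1149 to 3074 in PDGF samples. EGF and PDGF samples then overlapped in both lists. Of the probe sets for other tissues, 3 of 11 for microglia, 2 of 9 for endothelium, 2 of 13 for mural cells and fibroblasts and 1 of 2 for blood passed the filter. The part of these cell types in the differences of the Meis, Pbx and Pknox probe sets was not tested.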

How the data were processed

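The deposited intensity of each probe set is a linear signal that the authors computed with MAS5, per the submitters' processing notes; the sources used here give no version. The deposited array settings (a file per array, whose values are of other kinds) were read only to infer arrays of one fluidics run. Arrays were put in one run if they had the same station and protocol and were hybridised close together in time. Both chips were stacked under the same 15 RNA samples (30 arrays; 64 control probe sets per chip left out). A pseudocount, the 10th percentile of all values of a chip (52.0 and 115), was added before taking log2. The 29796 probe sets that reached the median of their array in 3 or more of 15 arrays entered a limma fit (limma 3.58.1, R 4.3.3; lmFit, contrasts and trended eBayes, with 12 residual degrees of freedom). P-values are two-sided and adjusted by Benjamini and Hochberg over all probe sets. Fold changes, as powers of 2 of the log2 difference, include the pseudocount and understate changes of dim probe sets. The fit was also tried on simulated data with independent normal noise. Those data held no effect of run or RNA integrity and the same spread in every condition, so nothing is read from them about such effects.

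The rule for named genes took every probe set of the 7 symbols, the 5 genes most correlated with the brightest Meis1 and Meis2 probe sets, and up to 4 called genes per list and comparison. The members and lists were chosen with earlier results of these data known. Samples were not treated as paired by replicate number: correlations of same-numbered deviations ran from -0.03 to 0.08. Same-numbered EGF and PDGF samples did share a fluidics run, and their correlations were all above 0 (0.02 to 0.08). Alternatives covered pseudocount, filter, scaling, samples in the fit, chips, array weights, replicate block, left-out replicates and fluidics run. Detection calls were not used here.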

Additional observations from a re-analysis of the deposited data

Results flagged for a closer look

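In 28 groups of 6 samples (14 probe sets in EGF and PDGF neurospheres), 3 held a sample far from the others, and chance alone flags about 1 in 20 groups. For Meis2 1447861_x_at, PDGF replicate 3 had a signal of 78.6, while the other 5 PDGF samples had 828 to 1512. For Meis3 1423984_a_at, EGF replicate 3 had 51.0, while the other EGF samples had 507 to 661. For Pknox2 1433907_at, EGF replicate 2 had 2664, while the other EGF samples had 3306 to 3711. The cause of these values was not tested.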

How the results depend on the processing

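Of 920 values of single probe sets over 30 settings, 887 kept their call, and no called value changed sign. Most of the 920 belong to probe sets not called in the main fit of that comparison, for which keeping the call means staying uncalled. They also include the EGF against PDGF values that chose the genes. In PDGF+NT-3 against PDGF the calls of Pbx3 1447640_s_at (0.79 to 1.10, adjusted p 0.000617 to 0.0111, limma) and Pknox1 1437470_at (2.11 to 2.60, adjusted p 0.00081 to 0.00745) held in every alternative that tested them, centring on array medians included. None of these alternatives could separate run from condition, since PDGF+NT-3 and PDGF arrays shared no run. Pknox1 1437470_at also passed the main filter only through the conditions where it was high. Meis1 1450992_a_at ranged from 1.28 to 2.16 and was left out by the filter at the 75th percentile. In EGF against PDGF within single fluidics runs, 77, 53 and 166 probe sets passed (2 samples against 2), and 1, 1 and 0 of the members' probe sets. Array weights left 3068 called probe sets in PDGF+NT-3 against PDGF, where 5116 passed without them, and 3344 in EGF against PDGF+NT-3, where 5332 did. With 1 replicate left out, the members' calls numbered 3 to 5 in EGF against PDGF+NT-3, with 3 without PDGF+NT-3 replicate 2, and 3 to 4 in PDGF+NT-3 against PDGF. The EGF against PDGF+NT-3 call of Meis2 1447861_x_at was lost in 11 of 20 alternatives that of Pbx3 1447640_s_at without PDGF+NT-3 replicate 1 and that of Meis1 1443260_at without PDGF+NT-3 replicate 2 (0.68). With the replicate number as a block, the members' calls numbered 5 in EGF against PDGF, 4 in PDGF+NT-3 against PDGF and 4 in EGF against PDGF+NT-3. The probe sets called then numbered 2352, 4377 and 4695. Same-numbered EGF and PDGF samples also shared a fluidics run, so this block holds part of any run effect. It lost the EGF against PDGF+NT-3 call of Meis2 1447861_x_at and changed no other call of the members. The number of arrays and, for dim probe sets, signal over an unknown background limit precision.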
